A study of Brassica napus with 33 samples.

Results

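The counts table of the *Brassica napus* (oilseed rape) small RNA libraries lists 3844 sequences of atypical length with no position in the genome. The choice rested on 3 properties of a row: an RNA sequence in place of a locus, no cluster name, and a length of 18 to 20 bases (short, 1059 sequences) or 25 to 36 bases (long, 2785 sequences). Measured values had no part in the choice. They made up 3.796% of the 101261 rows of the table, and 37.7% of the 10201 rows that hold a sequence without a position. The other rows are 91060 clusters with a position in the Express617 assembly. Each sequence is called here by u, its length and its rank in total counts among those of the same length, so that u30-1 is the one of 30 bases with the most counts.

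The 33 libraries fall into 11 groups of 3. Express617, a winter-type inbred and the maternal line, G3D001, a semi-winter, semi-synthetic inbred and the paternal line, and their F1 hybrid were sampled as seedling leaves (BBCH16) and as ovules of selfed plants 15 days (OS15) and 30 days (OS30) after pollination. F0 are ovules of Express617 plants pollinated with G3D001, sampled at OS15 and OS30 and not as leaves. Each replicate was a pool of material from several field-grown plants, and an ovule sample holds maternal tissue beside the products of fertilization. The rows are not paired with genes, so the labelled tissues could not be checked against marker genes.

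In plants, small RNAs cut by Dicer-like enzymes are mostly of 21, 22 or 24 bases, and guide the silencing of transcripts or the methylation of DNA. Small RNA libraries also hold pieces of longer RNAs, such as transfer and ribosomal RNAs, over a wider range of lengths. The letters CCA at the 3′ end of a mature transfer RNA are added after transcription and are not written in the nuclear genes of plants. A sequence that ends in CCA is not thereby known to come from a transfer RNA, and no sequence was named after an RNA here, because none was paired with one.

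Counts on clusters with a position ran from 12635700 to 27070031 per library, and all values below are counts per 1000000 of that total (CPM), so that a sequence with 1 count had 0.0369 to 0.0791 CPM. Sequences of atypical length took between 1.11% and 4.40% of all counts in a library. Every one had at least 347 counts over the 33 libraries. No 2 replicates agreed within sampling noise (chi-square per degree of freedom between 4.19 and 42.9 over 33 pairs). Some libraries stood apart. Over 50% of the summed CPM of 179 short and 433 long sequences came from 1 library, most often the leaf libraries F1 replicate 3 (52 short, 180 long), Express617 replicate 1 (32 and 106) and G3D001 replicate 3 (48 and 69). The OS30 library Express617 replicate 3, which held 28 such short sequences, also had 78062 CPM of unplaced sequences of 21 bases, against a median of 8210 CPM at OS30. What set these libraries apart was not tested.

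Sequences that ended in CCA were common at both ends of the length range. They made up 445 of the 1059 short sequences (42.0%) and 609 of the 2785 long ones (21.9%), against 17.1% of the unplaced sequences of 21 bases, 23.2% of those of 22 and 23 bases and 5.39% of those of 24 bases. The share in long sequences was thus within the range of the usual lengths. The share was highest at 19 bases (49.0% of 382) and at 36 bases (48.6% of 109), and lowest at 28 bases (13.4% of 269). This grouping by 3′ end was chosen after the sequences, but not their values, had been seen. The ends were few: the last 18 bases of the 1054 CCA sequences took 174 different forms.

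**Figure D1:**
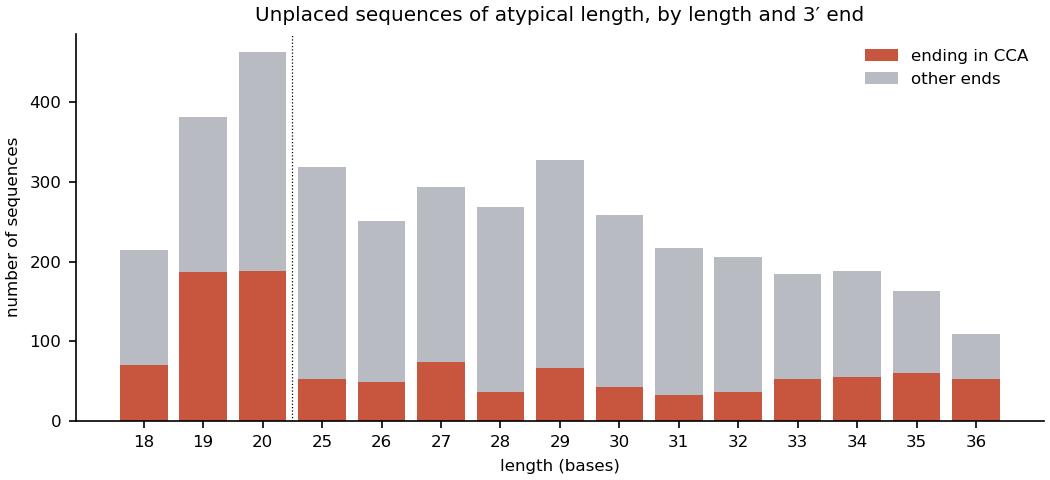
Number of unplaced sequences of atypical length (y axis) at each length in bases (x axis), with the part that ends in CCA in red and other ends in grey; the dotted line parts short from long. CCA ends make up 49.0% of the sequences of 19 bases and 48.6% of those of 36 bases.

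The sequences were rich in G and C and overlapped one another. The median GC content was 60% in short and 55.2% in long sequences, against 52.4% at 21 bases, 52.2% at 22 and 23 bases and 45.8% at 24 bases. No first base prevailed: A, C, G and U opened 23.9%, 29.2%, 24.8% and 22.1% of the short sequences and 19.5%, 32.3%, 23.6% and 24.7% of the long ones. By contrast, A opened 55.4% of the sequences of 24 bases and G opened 2.28% of those of 21 bases. Of the short sequences, 919 (86.8%) lay whole within a longer unplaced sequence, as did 66.1% of the long ones, 49.0% of those of 21 bases, 68.0% of those of 22 and 23 bases and 11.6% of those of 24 bases. When sequences that share a word of 15 bases were joined, the 3844 fell into 523 families, of which 93 had 10 or more sequences and held 2817 of them, and 211 had a single one. Sequences of a family are therefore not independent of each other. The 12 families with the most CPM carried 62.3% of the mean summed CPM.

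Abundance was uneven. The median short sequence had a mean of 1.45 CPM over the 33 libraries and the median long one 1.33 CPM, whereas the most abundant reached 735 and 937 CPM. The 10 most abundant sequences carried 37.3% of the short and 26.6% of the long CPM.

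The summed CPM of the short sequences was of the same order in leaves and ovules, with 5379 to 10375 CPM (median 7508) in the 9 leaf libraries, 4447 to 7077 (median 5791) in the 12 OS15 libraries and 6264 to 11339 (median 7676) in the 12 OS30 libraries. The 3 ranges overlap. The sum of the long sequences was 12023 to 39719 CPM (median 17131) in leaves, 6334 to 10224 (median 8169) at OS15 and 6429 to 14464 (median 11932) at OS30. Every leaf library lay above every OS15 library, and the leaf and OS30 ranges overlap. The mean over genotypes at OS15 was 0.35 ± 0.17 times that of leaves for the long and 0.77 ± 0.26 times for the short sequences (SD propagated from 3 replicates per group).

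The 2 kinds of 3′ end went different ways. Short sequences ending in CCA summed to 2910 to 6675 CPM in leaves, 3795 to 6394 at OS15 and 5297 to 10664 at OS30. Those with other ends summed to 1386 to 6267 CPM in leaves and to no more than 869 at OS15 and 1452 at OS30. Long sequences ending in CCA stayed within 1026 and 4203 CPM at all 3 stages, whereas the other long sequences reached 9248 to 37207 CPM in leaves, 3355 to 7024 at OS15 and 3960 to 11686 at OS30. Among the leaf libraries, the highest sums of short sequences without CCA were those of F1 replicate 3 (6267 CPM), G3D001 replicate 3 (5659) and Express617 replicate 1 (4765), the 3 libraries that stood apart. The lowest sum of long CCA sequences belonged to the OS30 library G3D001 replicate 2 (1026 CPM, against 2484 and 3319 in the others).

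**Figure D2:**
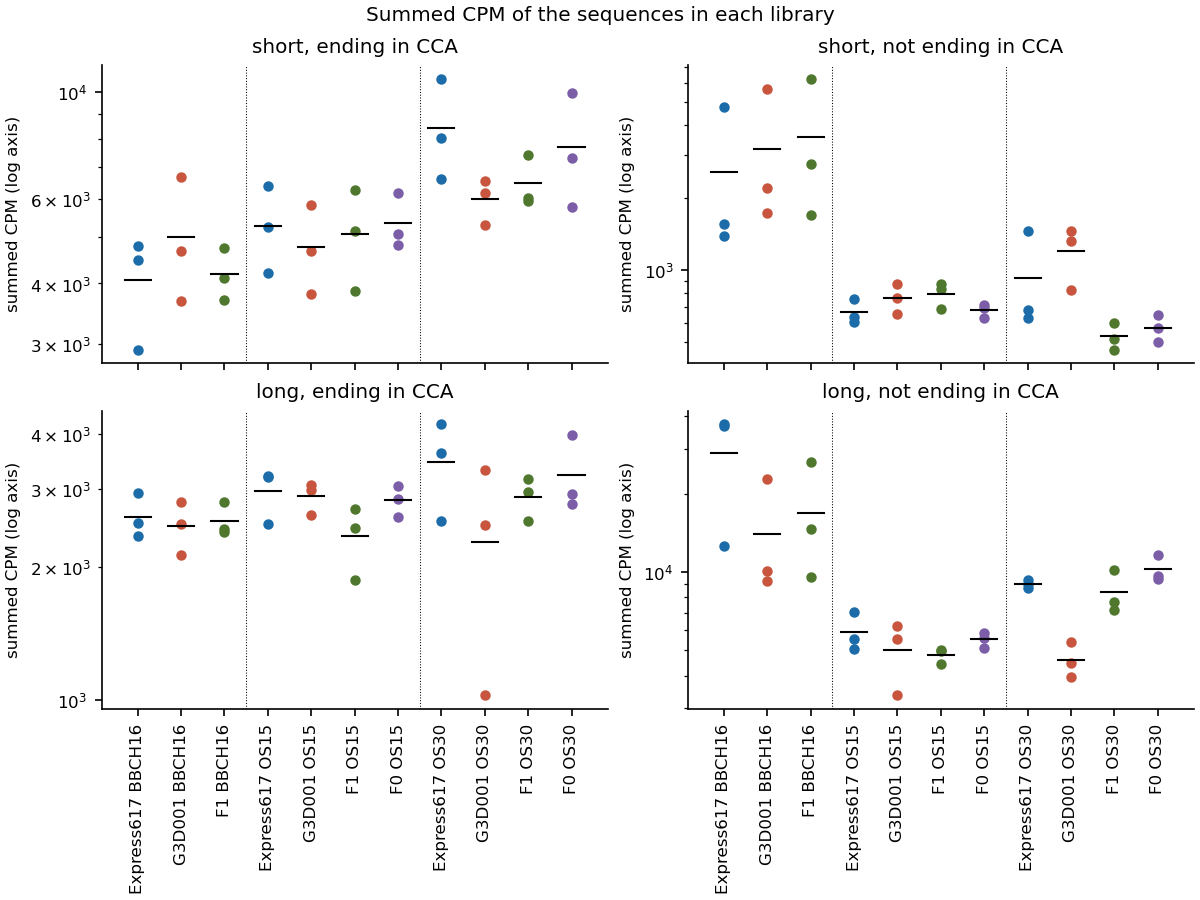
Summed CPM (log axis) of short (top) and long (bottom) sequences ending in CCA (left) or not (right); each point is 1 library, black bars are means of 3, colours mark the genotypes and dotted lines part the stages. The sums without CCA are highest in leaves, up to 6267 CPM for short and 37207 CPM for long sequences.

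The stages of presence differed in the same way. Over 90% of the stage-averaged CPM of 248 short (40.4%) and 862 long (39.6%) sequences without CCA came from leaves, against 7 (1.57%) and 6 (0.985%) of those with CCA. The share was 6.07% among the sequences of 21 bases and 3.88% among those of 24 bases. No count was found in any of the 24 ovule libraries for 155 short and 394 long sequences without CCA and for 2 long sequences with it. All but 2 of the sequences found mainly in 1 library also lacked CCA.

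The 5 most abundant short sequences, u18-1, u19-1, u19-2, u20-1 and u18-2, all ended in CCA. The bases of u18-1 recur: u19-1 and u20-1 are u18-1 with additional bases at the 5′ side, and the most abundant long CCA sequence, u25-1, ends in it as well. In all, 42 unplaced sequences end in the bases of u18-1, among them 26 of atypical length. Their summed CPM was lower with each added base from 18 to 20 and again from 21 to 24 bases, in all 11 groups. In Express617 leaves it was 390 CPM at 18 bases, 157 at 20, 334 at 21 and 37.4 at 24, with 156 at 25 and 4.88 at 26. In Express617 ovules at OS15 the same lengths gave 801, 290, 652, 78.3, 649 and 14.7 CPM. Sequences of 25 bases thus stood above both neighbouring lengths in leaves and in ovules.

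In leaves u18-1 had 276 to 739 CPM (median 398) and at OS15, in the same 3 genotypes, 575 to 999 CPM (median 813). The ranges overlap, and the change passed the test (log2 0.88 ± 0.20 SE, edgeR adjusted p = 0.000933). The nested u19-1 (log2 0.88 ± 0.19, adjusted p = 0.000788 by edgeR) and u20-1 (0.76 ± 0.19, adjusted p = 0.00318 by edgeR) rose with it. From OS15 to OS30 u18-1 had 575 to 1024 and 505 to 1299 CPM, which did not differ beyond the spread by CPM (edgeR adjusted p = 0.315). With TMM scaling, explained below, 421 of 445 short CCA sequences were called lower at OS30 and 0 higher. By CPM, u18-1 was also not called between the parents at any stage.

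The long u25-1 rose more. It had 134 to 256 CPM (median 189) in leaves and 485 to 1217 CPM (median 713) at OS15, with no overlap (log2 2.06 ± 0.16, edgeR adjusted p = 7.39e-10). By CPM, its OS30 values of 403 to 1791 enclosed those of OS15. With TMM scaling 583 of 607 long CCA sequences were called lower at OS30 and 0 higher. At OS15 u25-1 had 713, 485 and 577 CPM in Express617 and 1217, 771.9 and 1026 in G3D001. The parents thus did not overlap (log2 -0.76 ± 0.21, edgeR adjusted p = 0.0200). This call was lost without Express617 replicate 2 (adjusted p = 0.102), Express617 replicate 3 (0.0679) or G3D001 replicate 1 (0.0767) in the same edgeR test. In leaves the difference was close to the threshold (log2 -0.62 ± 0.20, edgeR adjusted p = 0.0446) and was lost without any 1 of the 9 leaf libraries (adjusted p from 0.0521 to 0.166 by edgeR), and with TMM or DESeq2 scaling (adjusted p = 0.308 and 0.380).

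Of the other leading short sequences, u19-2 had 108 to 247 CPM in leaves, 129 to 259 at OS15 and 359 to 641 at OS30. The OS30 libraries lay above all others on the CPM scale (log2 1.23 ± 0.13 against OS15, edgeR adjusted p = 1.86e-09). Relative to the other rows it went the other way, with a log2 change of -1.10 after TMM scaling. TMM (trimmed mean of M values) takes the trimmed mean change over clusters as no change. For u18-2 the log2 change was 0.53 ± 0.16 by CPM and -1.77 by TMM. Between the parents at OS30 u19-2 had 615, 475 and 522 CPM in Express617 and 376, 407 and 359 in G3D001 (log2 0.50 ± 0.16, edgeR adjusted p = 0.0162), again the other way after TMM scaling (-1.53). Without Express617 replicate 1 that call was lost (adjusted p = 0.0710 by edgeR).

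**Figure D3:**
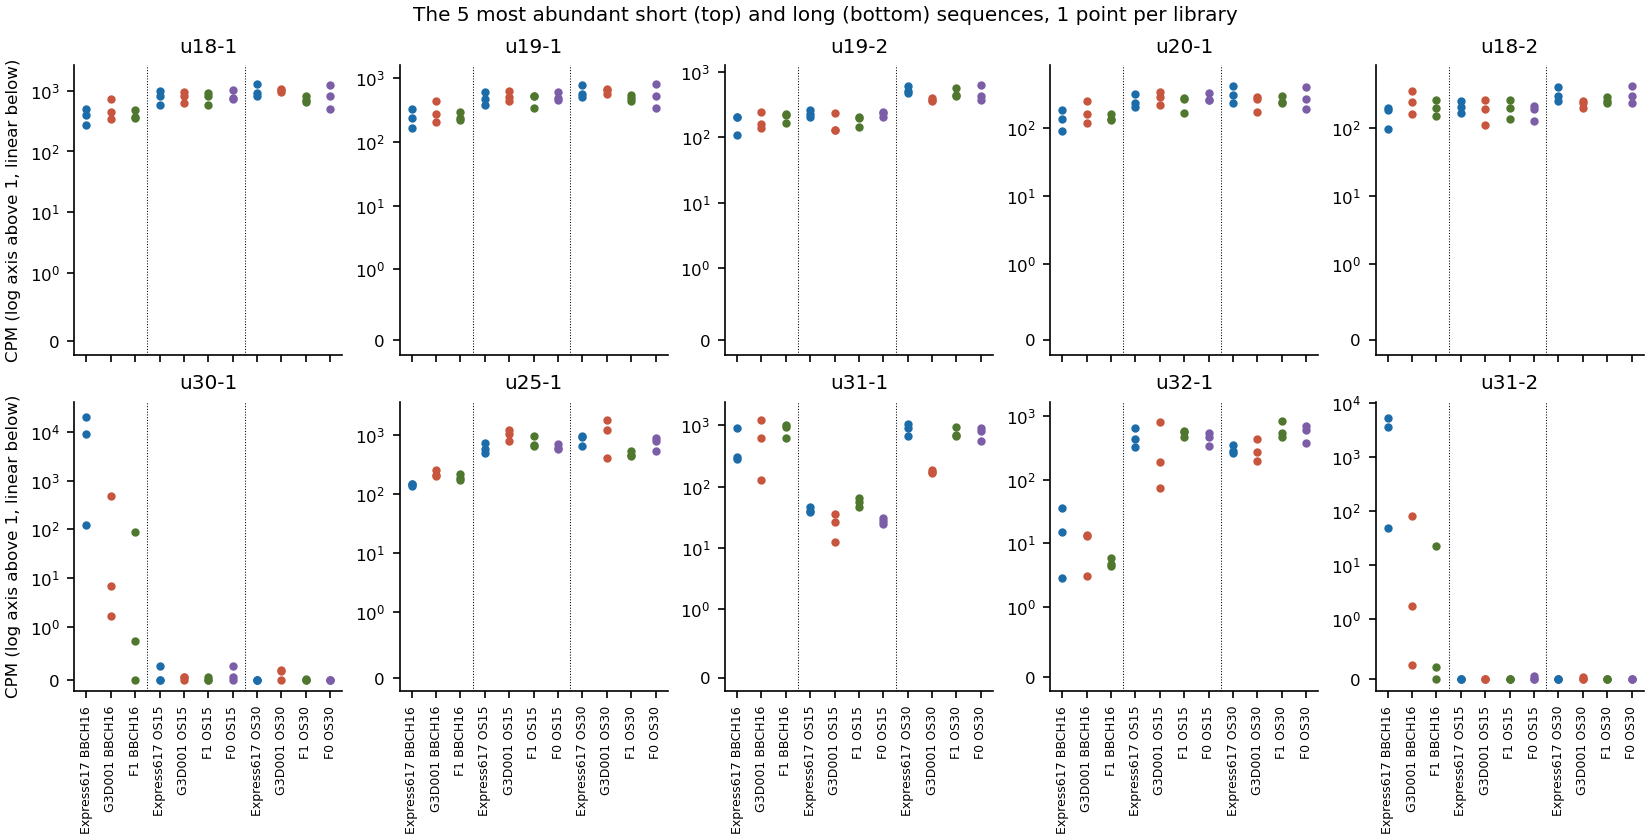
CPM of the 5 most abundant short (top row) and long (bottom row) sequences in each library; the y axis is logarithmic above 1 CPM and linear below, points are libraries coloured by genotype, and dotted lines part the stages. The leaf values of u30-1 reach from 0 to 21024 CPM, while u18-1 stays between 276 and 1299 CPM.

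Of the 5 most abundant long sequences, all but u25-1 did not end in CCA, and these showed 3 unlike patterns. The first was u30-1 with u31-2, both of a family of 22 sequences without CCA. In Express617 leaves u30-1 had 9177, 124 and 21024 CPM, in G3D001 leaves 6.87, 1.66 and 493, and in F1 leaves 86.8, 0.739 and 0. In the ovule libraries it did not exceed 0.275 CPM. Replicates of 1 group thus differed by over 100-fold, and the parents were not called different in leaves (log2 5.92 ± 2.20, edgeR adjusted p = 0.0887). The lower level at OS15 than in leaves was called (log2 -15.1 ± 2.04, edgeR adjusted p = 2.29e-06), with 1 leaf library at 0. The difference called between parents at OS30 (edgeR adjusted p = 0.0419) rests on values of at most 0.201 CPM, and was lost without any of 8 of the 9 libraries (adjusted p from 0.0532 to 0.110 by edgeR). The companion u31-2 followed u30-1 across the leaf libraries, with 3688, 49.8 and 5299 CPM in Express617, 1.73, 0.237 and 80.1 in G3D001 and 23.2, 0.202 and 0 in F1. It had no count at OS15 in these genotypes, while 139078 of its 141727 leaf counts lay in Express617 replicates 1 and 3. Its parental difference in leaves (log2 6.78 ± 2.13, edgeR adjusted p = 0.0425) was lost without Express617 replicate 3, G3D001 replicate 1 or G3D001 replicate 2 (adjusted p = 0.0784, 0.124 and 0.0906 by edgeR). The family as a whole had a mean of 14340 CPM in Express617 leaves, 204 in G3D001 leaves, 39.2 in F1 leaves and at most 0.170 in any ovule group. Whether this family comes from the plant was not tested, since no sequence was matched to a genome. Without it the summed CPM of the long sequences in Express617 leaves was 24874, 15413 and 11193 in place of 39075, 15603 and 39719, and every leaf library remained above every OS15 library.

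The second pattern was a low at OS15. In leaves u31-1 had 125 to 1192 CPM (median 626), at OS15 12.7 to 65.4 (median 36.7 over 12 libraries) and at OS30 164 to 1057 (median 678). OS15 did not overlap with either of the other stages. The fall from leaves (log2 -4.07 ± 0.38, edgeR adjusted p = 8.59e-09) and the rise to OS30 (log2 3.94 ± 0.23, edgeR adjusted p = 3.26e-13) were both called. At OS30 Express617 had 1057, 653 and 890 CPM, F1 663, 692 and 935, F0 900, 546 and 791, and G3D001 174, 183 and 164. G3D001 was thus apart from the other 3 groups on this scale (log2 2.32 ± 0.21 for Express617 against G3D001, edgeR adjusted p = 3.91e-06), but not after TMM scaling (log2 0.29, edgeR adjusted p = 0.344). The related u30-2, which had the smallest adjusted p of the long sequences higher at OS30 without overlap in any genotype, had 45.8 to 437 CPM in leaves, 5.37 to 16.5 at OS15 and 87.8 to 270 at OS30 (log2 3.85 ± 0.15 against OS15, edgeR adjusted p = 6.37e-16). Both belong to the largest family, of 234 sequences, of which 233 are long and 3 end in CCA. Its summed CPM was 1718 to 3349 in the leaf groups, 1776 to 2616 at OS15 and 2210 to 6743 at OS30.

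The third pattern, in u32-1 of that same family, was a low in leaves. It had 2.80 to 36.2 CPM in leaves and 73.5 to 814 at OS15, with no overlap (log2 5.52 ± 0.56, edgeR adjusted p = 2.94e-08). At OS30 it had 196 to 838 CPM, not called against OS15 by CPM (edgeR adjusted p = 0.772). With TMM scaling 1292 of 1782 long sequences without CCA were called lower at OS30 and 100 higher. The G3D001 libraries at OS15 spread widely for u32-1, with 73.5, 188 and 814 CPM. Sequences of 1 family were thus low at different stages.

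Between leaves and OS15 ovules most sequences of atypical length changed. Of the 2783 long sequences tested, 557 (20.0%) were higher and 1581 (56.8%) lower at OS15, and of the 1058 short ones 309 (29.2%) were higher and 423 lower (edgeR quasi-likelihood test, adjusted p under 0.05). Of all rows tested, 18.5% were higher and 25.7% lower. The median log2 change was -1.77 for long and -0.08 for short sequences, against -0.37 for all rows. The lower calls were the more frequent in sequences without CCA: 1345 of 2174 long ones (61.9%) and 351 of 613 short ones (57.3%) were lower, against 236 of 609 (38.8%) and 72 of 445 (16.2%) with CCA. Without the 3 leaf libraries that stood apart, 525 long sequences were higher and 1531 lower, and 263 short ones higher and 417 lower. That fit called 38.1% of all rows, against 44.2% in the main fit. TMM scaling left 30.2% of the called long sequences higher (26.1% by total counts) and moved the short from 42.2% to 50.8%. Of all rows called, 18740 of 44735 were higher by total counts and 23497 of 41435 with TMM.

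The sequences with the smallest adjusted p in this comparison, among those with no overlap in any genotype, were low at one of the stages. The short u18-8, which ends in CCA, had 0 to 0.518 CPM in leaves and 9.53 to 102 at OS15 (log2 7.51 ± 0.38, edgeR adjusted p = 3.35e-13). At OS15 Express617 had 15.7, 10.8 and 9.53 CPM of it, F0 9.43, 15.0 and 17.0, G3D001 43.2, 30.6 and 102, and F1 66.9, 90.5 and 81.2. The F0 values thus overlapped those of its maternal line, and the F1 values those of G3D001. The short u19-51 went down from 21.7 to 32.4 CPM in leaves to 0.349 to 1.02 at OS15 (log2 -5.09 ± 0.22, edgeR adjusted p = 2.46e-14). Among the long ones, u25-18 had at most 0.0659 CPM in leaves and 9.16 to 20.8 at OS15 (log2 9.98 ± 0.42, edgeR adjusted p = 1.72e-14). In the other direction u29-33 had 14.7 to 36.1 CPM in leaves and 0.312 to 1.22 at OS15 (log2 -5.35 ± 0.25, edgeR adjusted p = 1.06e-13).

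From OS15 to OS30 the direction of most sequences depended on what they were set against. By CPM, 269 of 904 short sequences (29.8%) were higher and 99 lower, and 575 of 2389 long ones (24.1%) were higher and 417 (17.5%) lower. Of all rows 79.4% were higher and 7.11% lower, with a median log2 change of 2.66 over all rows, 0.36 over short and 0.10 over long sequences. Most rows were thus higher by CPM at OS30, and the sequences of atypical length much less so. TMM scaling took most of that shift away, to a median log2 change of 0.29 over all rows. With it, 716 short sequences were lower and 7 higher, and 1875 long ones lower and 100 higher. Of all 100503 rows tested, 40856 were higher and 30519 lower. All CCA sequences called with TMM were lower (421 short and 583 long), whereas 201 short and 199 long ones were called higher by CPM. The summed CPM gave the same picture: OS30 had 1.36 ± 0.35 times the short and 1.37 ± 0.22 times the long CPM of OS15, and 0.32 and 0.28 times after TMM scaling. A direction at OS30 is therefore given below with its scale.

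The sequences named for this comparison kept their direction on both scales. The short u20-102 had 0.183 to 0.911 CPM at OS15 and 2.94 to 12.6 at OS30 (log2 3.75 ± 0.23, edgeR adjusted p = 7.28e-13, and 1.38 with TMM), and u30-2, described above, was higher too (1.52 with TMM). Lower in every genotype were u33-12 and u19-327. The long u33-12 had at most 0.233 CPM in leaves, 14.9 to 72.1 at OS15 and 0.671 to 1.74 at OS30 (log2 -4.77 ± 0.27, edgeR adjusted p = 2.17e-13, and -7.10 with TMM), so that it was found mainly at OS15. The short u19-327 had 0.0522 to 1.40 CPM at OS15 and 0 to 0.278 at OS30 (log2 -3.38 ± 0.44, edgeR adjusted p = 1.00e-07, and -5.61 with TMM), and its F0 libraries at OS15 were low too, with 0.120, 0.0522 and 0.110 CPM.

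**Figure D4:**
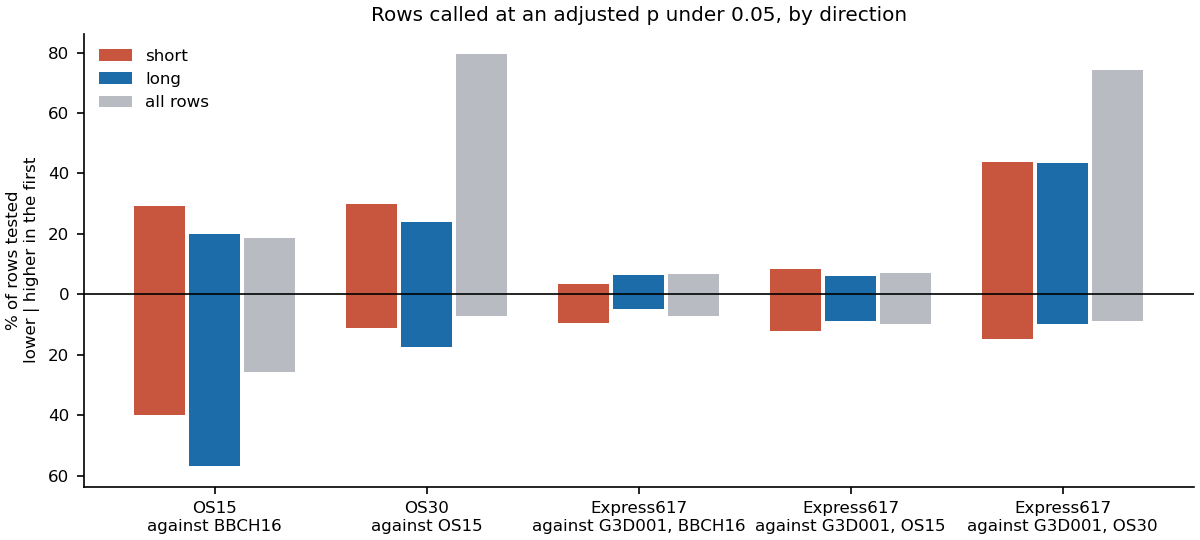
Share of rows tested (y axis, %) called higher (above the line) or lower (below) in the first group of each comparison by total-count scaling, for short sequences, long sequences and all rows. At OS30 all rows are called higher more often (79.4% against OS15) than the short (29.8%) or long (24.1%) sequences.

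The parents differed in a minority of sequences in leaves and at OS15. In leaves, 32 of 938 short sequences (3.41%) were higher and 89 (9.49%) lower in Express617, and 175 of 2688 long ones (6.51%) were higher and 131 (4.87%) lower. All rows gave 6.69% and 7.28%. At OS15, 74 of 872 short (8.49%) were higher and 105 lower, and 137 of 2302 long (5.95%) higher and 203 (8.82%) lower, against 7.16% and 9.69% of all rows. In leaves TMM scaling moved the long from 57.2% to 70.7% higher among those called. All rows moved too: of those called, 6413 of 13392 were higher by total counts and 8114 of 13104 with TMM. Without the 3 leaf libraries that stood apart, 38 short were higher and 114 lower, and 190 long higher and 211 lower, so that the majority among the long sequences turned. That fit called 10.1% of all rows, against 14.0% in the main fit.

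At OS30, 379 of 868 short sequences (43.7%) were higher and 127 (14.6%) lower in Express617, and 996 of 2286 long ones (43.6%) higher and 220 (9.62%) lower. All rows gave 74.1% higher and 8.65% lower, with a median log2 difference of 1.93, against 0.80 for short and 1.12 for long sequences. With TMM scaling the split turned, with 27 short higher and 456 lower, and 129 long higher and 755 lower, while of all 100302 rows tested 25604 were higher and 32399 lower. The summed CPM of the long sequences was 13572, 12323 and 11541 in Express617 and 6955, 6429 and 7279 in G3D001, which do not overlap (1.81 ± 0.19 times), but 0.45 times after TMM scaling.

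Several of the sequences with the smallest adjusted p between the parents were at or near 0 in one of them. The short u18-22, which ends in CCA, had the smallest adjusted p for higher in Express617 at all 3 stages. Express617 had 13.7, 20.4 and 20.1 CPM in leaves, 26.6, 17.2 and 15.1 at OS15 and 53.4, 37.1 and 31.7 at OS30, and G3D001 at most 0.0853 in any library. In leaves, where G3D001 had no count, Express617 was at least 273-fold higher (from the limit of 3 counts over 3 libraries; log2 11.2 ± 0.63 as fitted, edgeR adjusted p = 7.20e-08). F1 had 9.46, 10.4 and 8.96 CPM in leaves, between the parents. F0 had 19.3, 16.0 and 16.8 CPM at OS15, in the range of Express617. The long u25-112 had 2.72, 3.18 and 2.26 CPM in Express617 at OS15, none in G3D001 or in leaves, 1.05, 1.25 and 1.48 in F1 and 1.98, 2.09 and 2.26 in F0. Its level was at least 41.4-fold higher in Express617 (edgeR adjusted p = 1.92e-06).

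The long u25-12 was found in Express617 at 11.4, 9.44 and 12.5 CPM in leaves, against 0, 0.0791 and 0 in G3D001 (log2 8.53 ± 0.64, edgeR adjusted p = 2.78e-07). At OS15, however, G3D001 replicate 2 had 17.6 CPM of it while replicates 1 and 3 had 0.0611 and 0. At OS30 the long u28-19 had 30.5, 19.6 and 25.7 CPM in Express617 and 0.802, 0.915 and 0.895 in G3D001 (log2 4.85 ± 0.29, edgeR adjusted p = 5.40e-07, and 2.83 with TMM), and no more than 1.79 CPM in any leaf or OS15 library.

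Sequences of G3D001 that Express617 lacked fell into those seen and those not seen in F0. The long u28-4 and u29-8, of 1 family of 33, had no count in any Express617 library. In G3D001 leaves u28-4 had 33.8, 28.0 and 27.5 CPM and at OS15 33.4, 26.6 and 39.99, at least 535-fold above Express617 at OS15 (edgeR adjusted p = 6.43e-09). In F0 it had 5.52, 2.56 and 4.51 CPM at OS15 and 40.2, 34.2 and 29.2 at OS30, and in F1 24.9, 26.8 and 23.5 at OS15 and 59.0, 59.2 and 57.4 at OS30. Likewise u29-8 had 1.32, 1.15 and 1.16 CPM in F0 at OS15 and 58.0, 50.5 and 47.3 at OS30. In F1 it had 16.0, 19.0 and 16.2 and then 107, 110 and 115 CPM. F0 thus lay below F1 at both stages for both sequences, and closer to it at OS30. The short u20-52, which ends in CCA, had 0.300, 0.365 and 0.440 CPM in F0 at OS15 and 7.15, 9.46 and 8.80 at OS30, with 8.08 to 26.7 in G3D001 and at most 0.0582 in Express617.

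A further 3 sequences of G3D001 had no count in F0. The short u20-34 had 26.6, 19.8 and 20.5 CPM at OS15 and 67.7, 68.9 and 64.4 at OS30 in G3D001, and none in Express617, where the level at OS30 was at least 1166-fold lower (edgeR adjusted p = 1.59e-07). F1 had 16.8, 9.92 and 18.4 CPM at OS15 and 7.73, 7.91 and 8.94 at OS30. The long u25-44 had 17.0, 20.4 and 18.8 CPM in G3D001 at OS30 (at least 323-fold above Express617, edgeR adjusted p = 3.81e-07) and 6.32, 5.83 and 8.20 in F1. The short u19-48 had 54.0, 36.9 and 48.9 CPM in G3D001 at OS15 and 13.3, 15.5 and 17.1 in F1, with 1 Express617 library at 0.0538 (log2 -10.7 ± 0.52, edgeR adjusted p = 4.16e-09). None of these 3 had a count in leaves.

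The contrast held for whole sets of such sequences. A sequence was counted as found in 1 parent at a stage when each of its 3 libraries had at least 10 counts and the other parent had none, a rule chosen after values had been seen and used here for description. At OS15, 68 short and 103 long sequences were found in G3D001 only, and 4 short and 5 long in Express617 only. Other unplaced sequences were uneven in the same direction, with 1493 and 21 of 24 bases and 185 and 8 of 21 bases. Clusters went the other way, with 155 in G3D001 only and 233 in Express617 only. Positions are those in the assembly of Express617, not of G3D001, and whether this bears on the imbalance was not tested. F1 had 3 or more counts of all 68 short and of 102 of the 103 long ones. F0 had 3 or more counts of 9 of the 68 short (13.2%) and of 49 of the 103 long (47.6%), against 8 of 185 sequences of 21 bases (4.32%), 7 of 1493 of 24 bases (0.469%) and 27 of 155 clusters (17.4%). By family the contrast was smaller: the 49 long sequences came from 11 of 52 families and the 9 short ones from 4 of 44. At OS30, F0 had 13 of 75 short (17.3%, 7 of 49 families) and 44 of 87 long (50.6%, 13 of 52 families), beside 19 of 206 of 21 bases (9.22%), 244 of 1506 of 24 bases (16.2%) and 52 of 91 clusters (57.1%). The long sequences seen in F0 had a median of 13.8% of their F1 level at OS15 and 63.8% at OS30. All 9 sequences found in Express617 only at OS15 and all 10 at OS30 were seen in both F1 and F0. So were all such sequences of 21 and 24 bases. Of the clusters found in Express617 only, F0 had all 233 at OS15 and all 467 at OS30, and F1 had 226 and 467.

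**Figure D5:**
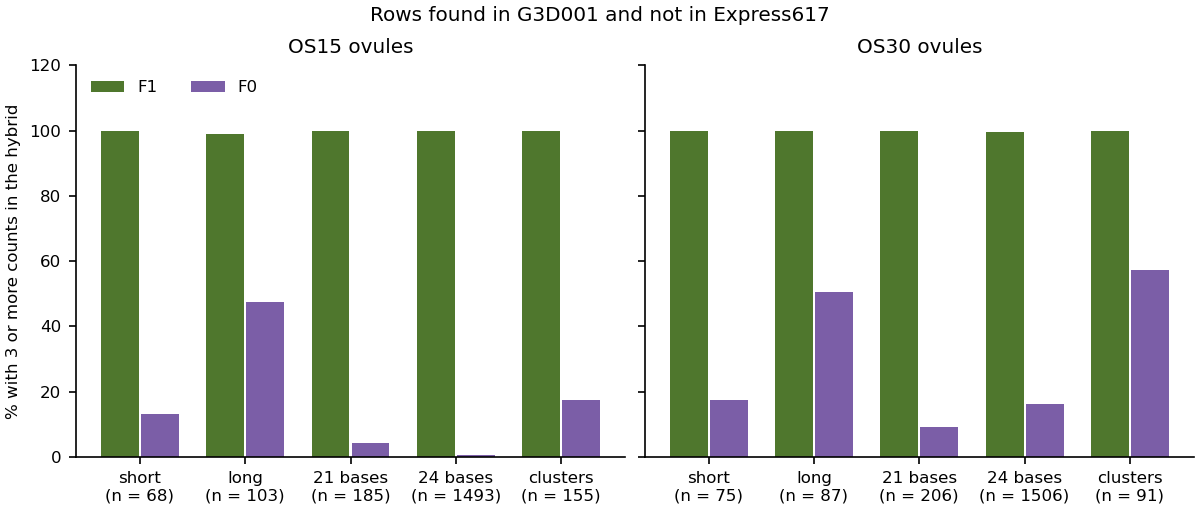
Share (y axis, %) of rows found in G3D001 and not in Express617 that had 3 or more counts over the 3 libraries of F1 (green) or F0 (purple), at OS15 (left) and OS30 (right), for short and long sequences, those of 21 and 24 bases, and clusters. F1 shows nearly all, and F0 47.6% of the long and 13.2% of the short sequences at OS15.

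In leaves F1 differed from Express617 in 105 of 938 short (93 higher) and 439 of 2688 long sequences (269 higher), with 9.03% of all rows called. From G3D001 it differed in 105 short (82 higher) and 315 long (249 higher), with 7.11% of all rows called. Of all rows called, 8144 of 8663 were higher in F1 than in Express617, and 6399 of 6817 higher than in G3D001. Higher than both parents were 51 short (5.44%) and 192 long sequences (7.14%), against 0.626% of all rows, and lower than both 1 and 39 (1.45%), against 0.0678% of all rows. With TMM scaling 51 short and 159 long were higher than both (0.306% of all rows), and 5 and 47 lower (0.109% of all rows). Without the 3 leaf libraries that stood apart, 49 short and 169 long were higher and 4 and 79 lower than both. The share of all rows outside both parents was not computed for that fit. With rows of at least 10 counts in 3 libraries only, 57 short and 279 long differed from Express617 and 49 and 169 from G3D001. Of all such rows 21.5% and 12.8% were called. Without the 3 leaf libraries that stood apart, 126 short (118 higher) and 453 long (304 higher) differed from Express617 and 95 (75 higher) and 358 (229 higher) from G3D001, with 4.38% and 4.49% of all rows called. The directions depended on the scale, since the median log2 difference of all rows from Express617 was 0.62 by total counts and 0.03 with TMM, and from G3D001 0.43 and 0.09. Against Express617, 75 of 102 short and 234 of 573 long were higher with TMM, and 51 of 116 and 137 of 646 with DESeq2. Against G3D001, 77 of 124 short and 232 of 317 long were higher with TMM, and 44 of 98 and 145 of 222 with DESeq2. The majority thus turned against Express617 for the long with both, and for the short against either parent with DESeq2. Of all rows called against Express617, 2052 of 3372 were higher with TMM and 1615 of 3527 with DESeq2. Against G3D001 they were 4013 of 4830 and 3003 of 3771.

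At OS15 F1 differed from Express617 in 106 short (100 higher) and 206 long sequences (124 higher), with 7.72% of all rows called, and from G3D001 in 66 short (51 higher) and 225 long (52 higher), with 6.15%. The latter counts rest on single libraries: leaving out F1 replicate 3 gave 28 short and 78 long, F1 replicate 1 gave 37 and 104, F1 replicate 2 gave 131 long and G3D001 replicate 1 gave 43 short. With TMM scaling 91 of 95 short and 88 of 164 long were higher than in G3D001, and 131 of 178 long were higher than in Express617. Of all rows called at OS15, 2496 of 6155 were higher than in G3D001 by total counts and 3770 of 4953 with TMM. Against Express617 they were 5335 of 7734 and 6435 of 7540. At OS30 F1 differed from Express617 in 122 short and 196 long sequences (14.7% of all rows called), and from G3D001 in 310 short (176 higher) and 1040 long (891 higher; 80.8% of all rows called). That last direction turned with TMM scaling, to 18 of 559 short and 91 of 764 long higher. Of all rows called, 73966 of 81071 were higher than in G3D001 by total counts and 22910 of 51089 with TMM.

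The main test, which had no term for same-numbered replicates, called few sequences between F0 and its maternal line. With a replicate block more were called, in both directions, as given at the end. In the main test at OS15, 9 of 873 short (8 lower) and 11 of 2322 long sequences (10 higher) differed from Express617. Of all rows 0.046% were called, 16 higher and 30 lower. At an unadjusted edgeR p under 0.05 there were 65 short (7.45%) and 267 long (11.5%), against 3.63% of all rows. The long count was 39 without Express617 replicate 1, 32 without G3D001 replicate 2 and 6 without Express617 replicate 2 or 3, and the short count was 5 without F0 replicate 1. At OS30, 21 short and 60 long sequences, all higher in F0, differed from Express617. Of all rows 2.23% were called, 1606 higher and 634 lower. Among the short and long sequences called, 17 short and 3 long ended in CCA. DESeq2 called 25 short, all higher, and 88 long, 3 of them lower, with 6.07% of all rows called. From G3D001 F0 differed in 223 short and 438 long at OS15 (18.3% of all rows called) and in 408 short (282 higher) and 1093 long (938 higher) at OS30 (82.3% of all rows called). With TMM scaling 25 of 490 short and 126 of 799 long were higher than in G3D001 at OS30, and at OS15 the short went from 48.4% to 56.2% higher. Of all rows called at OS30, 75279 of 82551 were higher than in G3D001 by total counts and 21590 of 48897 with TMM. At OS15 they were 7667 of 18343 and 9329 of 18857.

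Few stage changes differed between the parents from leaves to OS15: the change in Express617 minus that in G3D001 passed the test for 8 of 1048 short and 21 of 2765 long sequences, with 1.13% of all rows called. All 8 short sequences had the higher change in Express617, also with TMM scaling, and 6 of the 21 long, or 3 of 25 with TMM. From OS15 to OS30 it passed for 72 of 891 short (55 higher in Express617) and 414 of 2352 long sequences (384 higher), with 46.7% of all rows called. With TMM scaling all 191 short called and 222 of the 237 long called were lower in Express617, so that the majority among those called turned with the scale. This comparison was added after the other results had been seen.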

How the data were processed

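Small RNA libraries of 33 samples were sequenced by the authors as single-end reads, reads under 18 bases were removed, and clusters were called with ShortStack on the Express 617 assembly. How the rows without a position were made is not given in the sources used here. The deposited values are raw read counts per row, with no normalization. Those rows carry 1 extra empty field, so their counts were read 1 field later. In every row the 33 counts sum to the deposited total. No columns of other samples were found.

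CPM were computed against the summed counts of the clusters with a position. The main test was edgeR 4.0.16 (R 4.3.3) quasi-likelihood on the raw counts of all rows with a count in the fit, with those totals as library sizes, no further factor, and Benjamini-Hochberg adjustment over all rows (adjusted p under 0.05). TMM scaling was an alternative, because it assumes that most clusters do not differ. Genotypes were compared among both parents and 1 hybrid (9 libraries), and stages with genotype as a term (18 libraries for leaves and OS15, 24 for OS15 and OS30). The other alternatives were DESeq2 1.42.0, rows with at least 10 counts in 3 libraries, a replicate block, and leaving out each library. The F1, F0 and parental comparisons of a stage share parental libraries. Limits of 3 counts are over the libraries of a group and cover counting error only. The test was checked on counts simulated with the same dispersion in every row and no outlying library. Of 200 rows changed 4-fold it found 94% between the parents at OS15, with 10 false calls. For OS15 against leaves it found 100%, with 8 false calls. The check does not cover the wider spread between the real replicates.

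Named are the 5 sequences per class with the highest mean CPM, and per class, stage or parental comparison and direction the one with the smallest adjusted p whose libraries do not overlap (within every genotype for stages). Members and lists were chosen with earlier results of these data known. The sequences themselves are not printed. Replicates are pools of several plants. The labels give the leaf, OS15 and OS30 libraries of a genotype and replicate number 1 shared sample code (F0 excepted), which was no term in the main stage fits.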

Additional observations from a re-analysis of the deposited data

Results flagged for a closer look

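From OS15 to OS30, 3 named sequences changed differently between the parents. The long u29-33 had 0.613, 0.484 and 0.807 CPM in Express617 at OS15 and 2.16, 1.86 and 2.22 at OS30, whereas G3D001 had 1.04, 1.22 and 0.312 at OS15 and 0.0401, 0.122 and 0.171 at OS30. The change in Express617 exceeded that in G3D001 by 4.57 on the log2 scale (edgeR adjusted p = 0.000445), and by 2.65 after TMM scaling (edgeR adjusted p = 0.0229). The levels were low in all 12 libraries. For the short u18-8 the excess was 1.82 (edgeR adjusted p = 0.0158), and -0.0850 after TMM scaling (edgeR adjusted p = 0.991). For the long u31-1 it was 1.59 (edgeR adjusted p = 0.00850), and -0.344 after TMM scaling (edgeR adjusted p = 0.685). Groups of 3 libraries were not tested for single outlying libraries.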

How the results depend on the processing

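Of 128 counts of called sequences under alternatives other than leaving out a library, 114 stayed within 1.5 times the main count, as did 307 of 318 with a library left out. TMM scaling and DESeq2 gave 723 and 722 short (368 in the main test) and 1975 and 1905 long (992) for OS30 against OS15, and 559 and 576 short (310) for F1 against G3D001 at OS30. DESeq2 gave 113 short (66) for F1 against G3D001 at OS15. Requiring 10 counts in 3 libraries gave 57 short and 279 long for F1 against Express617 in leaves, and 49 and 169 for F1 against G3D001. With a library left out, F1 against G3D001 at OS15 gave 28 to 92 short and 78 to 304 long, and F0 against Express617 at OS15 5 to 11 short and 6 to 39 long. The ratios of summed CPM moved beyond their SD with TMM scaling alone: to 0.32 (short) and 0.28 (long) for OS30 against OS15, and to 0.32 and 0.45 for Express617 against G3D001 at OS30. The tally for named sequences covers only comparisons called in the main test, and so leaves out, for example, u18-1 from OS15 to OS30. In it, 674 of 711 alternative values kept their call and 6 reversed, all at OS30: u19-2 against OS15 (-1.10 with TMM, -0.74 with DESeq2) and between parents (-1.53 and -1.45), and u18-2 against OS15 (-1.77 and -1.41). Apart from the construction of TMM, the cause was not tested.

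Same-numbered replicates did not pair in general: the correlation of their deviations from group means had a median of 0.0360 in leaves, 0.0862 at OS15 and 0.0678 at OS30, and exceeded 0.1 in 2 of 9, 9 of 18 and 8 of 18 pairs. Those of Express617 and F0, however, had correlations of 0.560, 0.393 and 0.475 at OS15 and 0.323, 0.200 and 0.359 at OS30. The main test of F0 against Express617 took no account of this. Between OS15 and OS30 of the same genotype the correlation exceeded 0.1 in 11 of 12 pairs, and between leaves and OS15 in 0 of 9. The replicate block (for stages, the sample code that the labels share across stages) gave 16 short (6 higher) and 88 long (48 higher) for F0 against Express617 at OS15 and 40 short at OS30, of which 19 were lower, as were 9 of 77 long. Of all rows it called 0.216% at OS15 and 3.41% at OS30 in this comparison. Other counts with the block stayed within 1.5 times, with 326 short and 858 long for OS30 against OS15 (85.1% of all rows called). A library of the lowest depth had 0.0791 CPM per count, which limits what can be said of sequences below that level.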
